A study of Mus musculus with 2 samples.

Results

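Optic vesicle cells of mouse eye organoids were examined at day 6 of culture as the cells in which transcripts of both Six6 and Rax were captured. A cell was taken when it carried 1 or more unique molecular identifiers (UMIs, tags that mark single captured transcripts) each of Six6 and Rax and 0 UMIs of Wnt8b. It also had to hold at most 26000 UMIs, at most 5000 genes, 0.5 to 10% mitochondrial UMIs and fewer than 10 UMIs of Dppa5a, a gene of pluripotent cells. These conditions gave 2094 cells, which were 35.6% (95% interval 34.4 to 36.9) of the 5876 day 6 cells within the same limits. The 2 libraries together held 16560 barcodes. The cells were chosen by their UMI counts of Six6, Rax, Wnt8b and Dppa5a, and the levels of these 4 genes therefore describe the choice and are left out of every count and median given here.

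The organoids were grown from mouse embryonic stem cells of genotype Rax-GFP knockin Het, a single line derived from EB5 cells that carries the green fluorescent protein gene at 1 allele of Rax. The samples were taken on day 4 and day 6, and no other genotype or treatment is named for them. Organoids were dissociated with papain, the cells of 3 independent experiments were pooled before library preparation, and 1 library per day was made with the Chromium 3' v2 kit. The labels call the cells retina progenitors, although the libraries also held cells with markers of neural crest, endoderm and pluripotent cells. No value separates the 3 experiments, so all comparisons lie within 1 library, no p-value can be computed, and every interval covers counting error only. The 2 libraries shared 91 barcode sequences.

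In the embryo the optic vesicles bulge out from the eye field, a region of the anterior neural plate in which the transcription factors Rax, Pax6, Six3, Lhx2 and Otx2 are active. Six6 is switched on as the vesicle forms and is needed for the growth of retinal progenitors. Neighbouring forebrain tissue expresses Fezf2 and Emx2, and its dorsal midline produces Wnt ligands such as Wnt8b, which are known to oppose eye fate when active too far forward.

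The selected cells carried a median of 2.39% mitochondrial and 33.0% ribosomal protein UMIs, against 2.54% and 34.1% in the cells without Six6. They held 29065692 UMIs in all, with a median of 13055 UMIs (5116 to 25972) and 3175 genes per cell. The comparison set was 3118 day 6 cells without a Six6 UMI, which had a median of 12392 UMIs and 3052 genes. The closest neighbours were 948 cells of that set that had a Rax UMI but no Wnt8b UMI, at a median of 12751 UMIs. Also drawn from it were 723 Fezf2-positive cells without Rax and 715 Wnt8b-positive cells, which overlap in 279 cells. All these sets were compared with the same selected cells, so their results are not independent of each other. A gene without a UMI in a cell may still be expressed there below the depth of capture.

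Levels are given in CPM, the summed UMIs of a gene on a per-million scale of all UMIs of the cells, and are compared between sets of cells rather than between genes. With no test at hand, a call by size was made for a gene at 10 CPM or more over both sets, where the 2 levels stood 1.5-fold or more apart and the interval of their ratio left out 1. Six6 itself stood at 273 CPM and Rax at 201 CPM. A single Six6 UMI was found in 493 cells (23.5%) and 4 or more in 859 cells (41.0%), with a median of 3 and a highest count of 25. For Rax the median was 2 UMIs, and 613 cells (29.3%) had exactly 1. When each cell was thinned to 5000 UMIs, 72.2% of the cells kept a Six6 UMI and 67.9% kept a Rax UMI, so a part of the cells entered the set on 1 or a few molecules.

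The label was set beside marker genes of optic vesicle and of 7 other kinds of cell. Of the 6 optic vesicle markers Six6, Rax, Mab21l2, Col9a1, Necab2 and Pax6, the first 2 were fixed by the choice and bear nothing on the label. The other 4 summed to 555 CPM (546 to 563), against 256 CPM in the cells without Six6 and 363 CPM in the Rax-positive cells without Six6. Each was higher by size than in the cells without Six6, and against the Rax-positive cells 2 were higher and 2 within. These 4 belong to the label, which was made with earlier results of these data known, so their sum describes the label and is no test of it. Markers of other cell types were low. The 5 neural crest markers summed to 1.07 CPM with Foxd3 at 0, and the 6 midbrain and hindbrain markers to 0.722 CPM with En2 at 0. The 6 primitive endoderm markers came to 6.06 CPM and the 4 lens markers to 6.95 CPM, of which 2 were at 0 and Prox1 held 6.88 CPM. Without Dppa5a, the other 5 pluripotency markers reached 4.23 CPM. The 5 neuron markers came to 51.4 CPM with Neurog2 at 0 and, without Wnt8b, the other 4 markers of forebrain outside the eye to 45.2 CPM. Cells without Six6 held more of most of these markers, at 24.2 CPM of neural crest, 15.6 CPM of midbrain and hindbrain, 47.7 CPM of endoderm, 15.4 CPM of pluripotency, 114 CPM of neuron and 129 CPM of other forebrain markers, again without Dppa5a and Wnt8b. The lens markers ran the other way, at 3.76 CPM (3.19 to 4.41) in the cells without Six6.

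Against the cells without Six6, the selected cells had more RNA of a short set of eye and signalling genes and less of forebrain and glucose carrier genes. Of 6785 genes measured, 74 were higher by size (1.09%) and 146 were lower (2.15%), and the median log2 ratio of all genes was 0.02. Col9a1, a collagen gene, showed the highest ratio among the genes at 20 CPM or more. It stood at 43.4 CPM in the selected cells, 14.1 CPM in the Rax-positive cells without Six6, 4.07 CPM in Fezf2-positive cells and 1.37 CPM in Wnt8b-positive cells. Against all cells without Six6, at 8.49 CPM, it was 5.12-fold higher (4.54 to 5.78). A Col9a1 UMI was found in 37.7% of the selected cells, and after thinning in 18.96% of them, 6.96% of the Rax-positive cells without Six6, 1.94% of Fezf2-positive cells and 0.559% of Wnt8b-positive cells. It was found in 5.11% (2.08 to 10.2) of 137 neural crest-like cells, which had 2 or more of 5 crest markers and a median of 15903 UMIs.

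**Figure D1:**
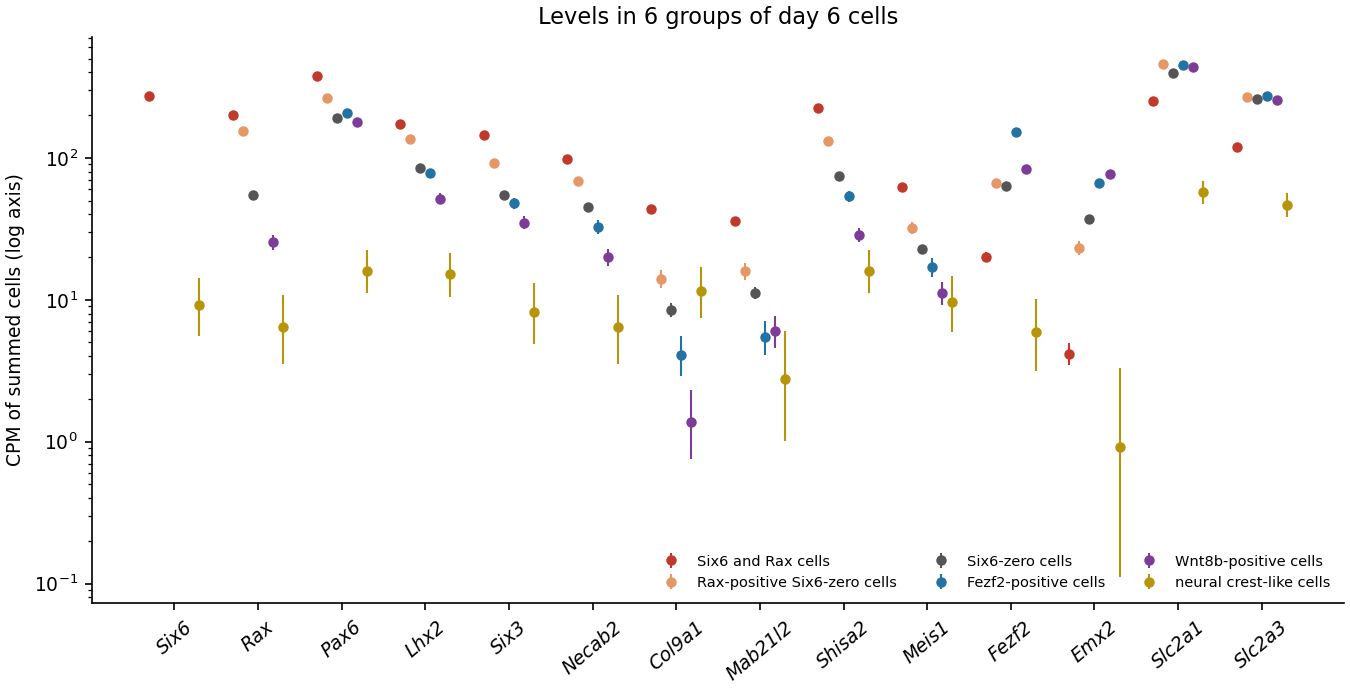
Levels of 14 genes in 6 sets of day 6 cells, with the gene on one axis and CPM on a logarithmic axis, a point per set and a bar for its exact Poisson 95% interval, sets at 0 UMIs left out. The eye genes such as Col9a1, Shisa2 and Six3 were at their highest in the cells with Six6 and Rax, whereas Fezf2 and Emx2 and the glucose carriers Slc2a1 and Slc2a3 were lower there than in the other forebrain sets.

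The transcription factors of the eye field came next. Six3, which represses Wnt genes in the anterior forebrain, stood at 144 CPM (140.1 to 149) against 54.3 CPM and was 2.66-fold higher (2.53 to 2.80). Its level was 92.4 CPM in Rax-positive cells without Six6, 47.9 CPM in Fezf2-positive cells and 35.0 CPM in Wnt8b-positive cells, and the intervals of these 4 sets did not overlap. Pax6, a master regulator of eye development, was detected in 97.1% of the selected cells and stood at 378 CPM against 192 CPM, a ratio of 1.97 (1.92 to 2.03). Lhx2, which is required for the vesicle to become a cup, was at 175 CPM against 84.3 CPM, a ratio of 2.07 (1.98 to 2.16). The other 4 measured members of the eye field list stayed inside the 1.5-fold limit: Otx2 had a ratio of 1.29, Nr2e1 of 1.20, Sox2 of 0.789 and Hesx1 of 0.746. Of 7 measured members, then, 3 were higher, 0 lower and 4 within, with a median log2 ratio of 0.36. Tbx3 was under the level limit.

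Against the Rax-positive cells without Six6, the difference in eye field factors was smaller. Six3 remained past the limit at 1.56-fold, while Pax6 was at 1.43 and Lhx2 at 1.28, within it. Hesx1, a repressor of the early anterior neural plate, was lower at 13.6 against 30.8 CPM, a ratio of 0.442. In that comparison 58 genes were higher by size (0.863%) and 72 lower (1.07%) of 6719, with a median log2 ratio of 0.04 over all of them. Rax itself was at 201 against 154 CPM, which the choice of cells can set.

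The bases just upstream of 3 genes are shown. Six6 was taken because it chose the cells and its relative Six3 because it was high beside it. Mab21l2, described next, had the second highest ratio among the genes at 20 CPM or more. Each run is 250 bases before the annotated start, from RefSeq on GRCm38.p6, read 5′ to 3′ on the strand of the gene. Capitals mark the letters TGACAG, the core bound by Meis factors, and the search also covered TAATTA and TGATAC, on both strands. The windows are chr12:72939632-72939881 for Six6, plus strand, with TGACAG starting 46 bases before the start site, chr17:85620584-85620833 for Six3, plus strand, with TGACAG 139 bases before it, and chr3:86548284-86548533 for Mab21l2, minus strand, with 0 matches.
Six6: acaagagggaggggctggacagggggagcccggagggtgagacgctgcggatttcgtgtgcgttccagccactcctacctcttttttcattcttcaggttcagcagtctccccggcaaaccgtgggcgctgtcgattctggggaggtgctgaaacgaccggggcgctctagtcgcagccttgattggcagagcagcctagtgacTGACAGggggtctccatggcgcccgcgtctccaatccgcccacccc
Six3: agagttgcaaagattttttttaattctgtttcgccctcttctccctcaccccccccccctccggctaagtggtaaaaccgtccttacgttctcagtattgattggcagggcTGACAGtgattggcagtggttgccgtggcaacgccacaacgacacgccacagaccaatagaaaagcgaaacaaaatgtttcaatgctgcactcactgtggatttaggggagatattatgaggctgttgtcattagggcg
Mab21l2: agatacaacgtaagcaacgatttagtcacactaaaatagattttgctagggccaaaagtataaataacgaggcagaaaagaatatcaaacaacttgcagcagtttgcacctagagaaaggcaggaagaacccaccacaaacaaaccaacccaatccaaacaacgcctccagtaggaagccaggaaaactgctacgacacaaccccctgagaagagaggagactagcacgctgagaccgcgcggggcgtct
Bases G and C made up 62.8% of the Six6 window, 48.8% of the Six3 window and 46.8% of the Mab21l2 window. Among genes for which a window was found, TGACAG stood in 7 of the 60 called higher (11.7%), 22 of the 111 called lower (19.8%) and 15.1% of those measured. It stood in 15.9% of all 32851 windows. The shares of genes count a match in any window of a gene, whereas the last share counts single windows, so they are unlike measures. TAATTA, a homeodomain core, stood in 4 of the 60 (6.67%), 3 of the 111 (2.70%), 2.59% and 4.84% in the same order. A match describes letters in a window and is not a binding site.

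Among genes of neural retina progenitors, 3 of 9 measured were higher and 0 lower, and the median log2 ratio was 0.15. Mab21l2, needed for growth of the optic vesicle, stood at 35.8 CPM against 11.1 CPM and was 3.21-fold higher (2.87 to 3.59). Its levels were 15.9 CPM in Rax-positive cells without Six6, 5.42 CPM in Fezf2-positive cells and 5.98 CPM in Wnt8b-positive cells, of which the last pair did not differ beyond counting error. The 2.26-fold ratio to the Rax-positive cells (log2 1.17) fell inside the limit, at a log2 ratio of 0.40, when both sets were chosen on thinned cells. Meis1, a homeodomain factor upstream of Pax6 in the eye, was at 61.9 against 22.8 CPM (2.71-fold, 2.51 to 2.94). Sfrp2, a secreted Wnt inhibitor, was at 171 against 92.7 CPM (1.84-fold). Hes1, a Notch effector that holds progenitors undifferentiated, came close to the limit at 452 against 305 CPM, a ratio of 1.48. Of genes of later retinal steps, 0 of 2094 cells had a UMI of Atoh7, a factor that starts ganglion cell formation. That allows up to 0.143% of cells with such a UMI, the share of 3 cells, and does not limit the share of cells that express it.

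The remaining genes of the top 15 had less familiar roles in the eye. Shisa2, which holds back Wnt and FGF receptors inside the cell, stood at 225 CPM against 74.9 CPM, 3.003-fold higher (2.88 to 3.14), and was detected in 90.5% of the selected cells. Fgf13, an intracellular member of the FGF family and no secreted ligand, was at 53.5 against 17.3 CPM (3.09-fold, 2.83 to 3.39). The G protein subunit gene Gnai1 was at 45.7 against 16.6 CPM (2.75-fold) and Rgs2, an inhibitor of G protein signalling, at 52.2 against 20.5 CPM (2.55-fold). Necab2, which encodes a neuronal calcium-binding protein, was at 97.4 against 44.8 CPM (2.18-fold). Ank2, Fbn2, Ldhb and Unc5b completed the 15, with ratios from 1.93 to 2.10. Without the cells that carried 2 or more markers of crest, endoderm, pluripotent or midbrain and hindbrain cells, which left 2063 and 2691 cells, these 15 genes stayed past the limit, from 1.75-fold for Pax6 to 4.83-fold for Col9a1.

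**Figure D2:**
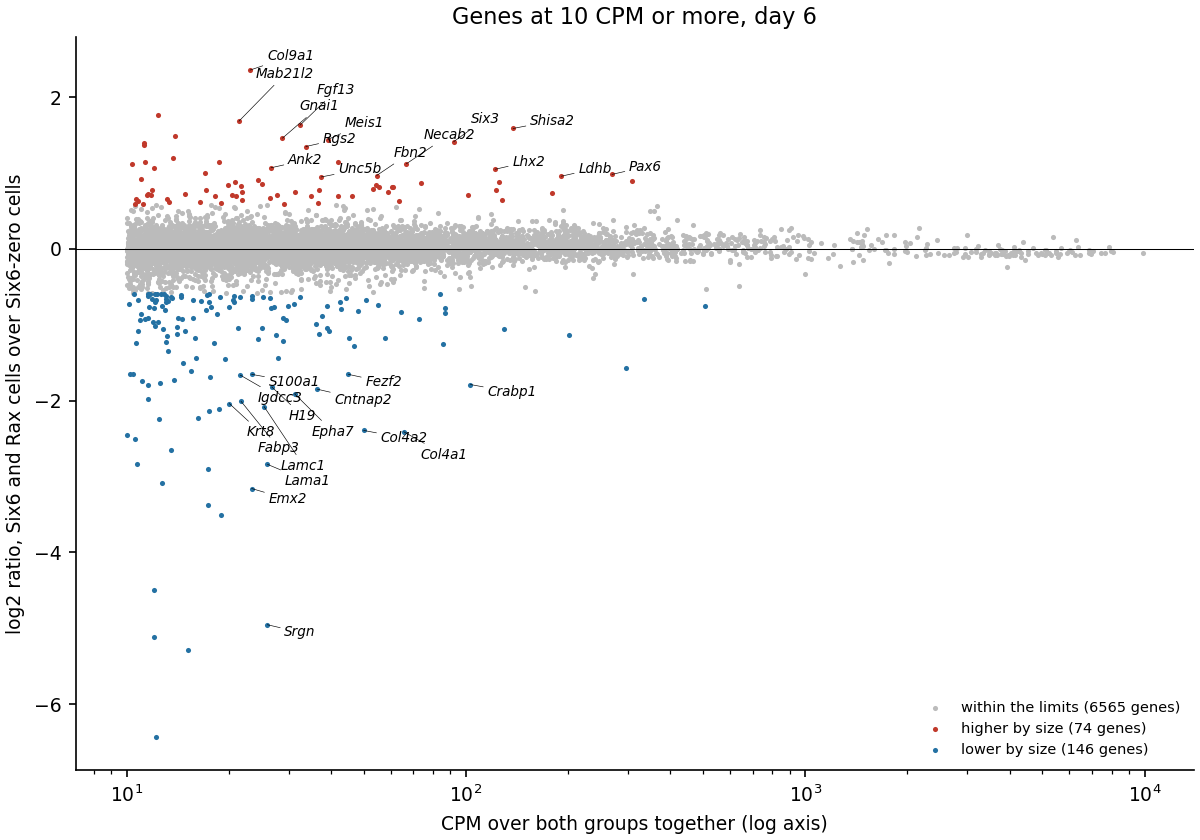
Each point is 1 of the 6785 measured genes, with its level over both sets in CPM on a logarithmic axis and its log2 ratio of cells with Six6 and Rax over cells without Six6. Grey points are the genes within the limits and coloured points the 74 higher and 146 lower. Labels mark the 30 named genes at the ends of the ratio among those at 20 CPM or more.

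Among the genes lower in the selected cells, those of 2 kinds lay side by side. The first kind marks cell types outside the neural plate. Srgn, a proteoglycan gene of secretory granules, stood at 1.41 CPM against 43.7 CPM (ratio 0.0323), Lama1 at 5.68 against 40.6 CPM (0.140), Col4a1 at 18.7 against 99.3 CPM (0.188), Col4a2 at 14.4 against 75.5 CPM (0.190) and Lamc1 at 8.84 against 37.4 CPM (0.237). The last 4 encode laminin and collagen chains of basement membranes, whose list had 7 of 11 measured members lower, 1 higher and 3 within. These calls were lost without the cells that carried 2 or more markers of other types, and the list then had 1 of 9 measured members lower (Frem2), 2 higher and 6 within. With those cells left out of both sets, the ratio was 0.930 for Srgn, 1.02 for Lama1, 1.04 for Col4a1, 0.986 for Col4a2 and 0.864 for Lamc1, and Fabp3 and S100a1 also came inside the limit at 0.789 and 0.799. Lamb1, another laminin chain gene of that list, went from lower at 0.575 to higher at 1.67-fold (1.504 to 1.85). The number of genes called lower went from 146 to 92, of which 80 were among the 146, and 74 were called higher, of which 65 were among the first 74.

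The second kind marks forebrain outside the eye. Emx2, a factor of the dorsal telencephalon, stood at 4.16 CPM (3.45 to 4.97) in the selected cells, 23.2 CPM in Rax-positive cells without Six6, 66.0 CPM in Fezf2-positive cells and 76.9 CPM in Wnt8b-positive cells. It was at 37.2 CPM in all cells without Six6, a ratio of 0.112 (0.0923 to 0.135), and at 0.0996 with the marked cells left out. Fezf2, a factor of the anterior forebrain, stood at 20.02 CPM against 63.0 CPM (0.318, 0.290 to 0.348) and at 66.4 CPM in the Rax-positive cells without Six6 (0.302, 0.271 to 0.336). That was the lowest ratio of the comparison among genes at 20 CPM or more, and 17.7% of the selected cells had a Fezf2 UMI. Lhx5 was at 6.37 against 27.6 CPM, a ratio of 0.231. Of 8 measured telencephalon genes, 6 were lower (the other 3 being Dmrt3, Sp8 and Dmrta2, at 0.425 to 0.622), and 2 were higher, among them Lmo3 at 1.61-fold, with a median log2 ratio of -1.07. Lmo3 came inside the limit at 1.45-fold with the marked cells left out. Epha7, Cntnap2 and Igdcc3, which encode an ephrin receptor, a neuronal adhesion protein and an immunoglobulin family protein, had ratios of 0.266, 0.277 and 0.316, and stayed at 0.242 to 0.312 with the marked cells left out.

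Col9a1, Shisa2 and Mab21l2 were also far higher than in the Fezf2-positive and the Wnt8b-positive cells, and Epha7 and Cntnap2 far lower. Against Fezf2-positive cells, 130 genes were higher (1.93%) and 93 lower (1.38%) of 6726, with Col9a1 10.7-fold higher (7.77 to 15.1), Mab21l2 6.59-fold and Shisa2 4.19-fold, and with Epha7 at a ratio of 0.196 and Cntnap2 at 0.209. Against Wnt8b-positive cells, 129 were higher (1.91%) and 119 lower (1.76%) of 6747, with Col9a1 31.7-fold higher (18.8 to 58.1), Shisa2 7.89-fold and Meis1 5.59-fold, and with Emx2 at 0.0541 and Cntnap2 at 0.145. Fezf2 was lower in both, at 0.132 and 0.240, the former being fixed by the choice of those cells.

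Wnt pathway genes lay on both sides. Of 17 measured, 3 were higher, 8 lower and 6 within, and the median log2 ratio was -0.32. The 3 higher genes were the receptor Fzd5, which acts in the eye field, at 21.0 against 6.16 CPM (3.41-fold, 2.93 to 3.96), and the inhibitors Shisa2 and Sfrp2. Among the 8 lower genes, Rspo3, a secreted enhancer of Wnt signalling, was at 0.585 against 20.3 CPM, Wls, which carries Wnt proteins to the cell surface, at 47.4 against 113 CPM (0.420), and the ligand gene Wnt7b at a ratio of 0.211. Axin2, a common readout of canonical Wnt signalling, stood at 4.71 against 15.7 CPM (0.299), and Lef1 and Nkd1 at 0.624 and 0.589. The inhibitors did not all run one way, since Dkk1 was lower at 5.88 against 25.9 CPM (0.227) and Frzb at 0.486, and Sfrp1 was within at 1.23. The selected cells had 0 Wnt8b UMIs by choice, whereas 715 cells of the set without Six6 had 1 or more. The part of this choice in the lower Wnt genes was not tested. Against the Rax-positive cells without Six6, also chosen at 0 Wnt8b UMIs, 3 of 14 measured were higher, 3 lower and 8 within. Their median log2 ratio was 0.08, with Fzd5 at 1.96-fold, Wls at 0.488 and Dkk1 at 0.249.

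Other signalling lists showed few calls. In the FGF list, 1 of 6 measured was higher, Fgf13, and 1 lower, the receptor inhibitor Il17rd at 9.19 against 20.8 CPM (0.442). In the BMP list, 1 of 7 was higher, Id2, a BMP target, at 161 against 103 CPM (1.57-fold), while Id1 and Id3 had ratios of 1.09 and 0.905. In the Notch list 0 of 6 were higher and 1 was lower, the ligand gene Jag1 at 0.462. In the hedgehog list the co-receptor gene Cdon was higher at 1.58-fold and Gli3 lower at 0.662 among 6 measured. The retinoid list had 4 measured genes, of which 1 was higher, 1 within and 2 lower. The lower ones were Rbp4, which carries retinol in blood, and Crabp1, which binds retinoic acid. Rbp4 went from a ratio of 0.134 to 0.803 (0.622 to 1.04), under the level limit, when the marked cells were left out. Crabp1 at 42.5 against 147 CPM (0.290) moved to 0.429 when the marked cells were left out, and it was at 927 CPM in the neural crest-like cells. Adhesion and apical genes were mostly inside the limits: 7 of 8 measured cadherins and adhesion genes and 14 of 15 genes of apical junctions and actin contraction were within, the exceptions being Epcam at 0.183 and Myh9 at 0.651, both lower. With the marked cells left out, Myh9 was inside the limit at 0.722 and Epcam, at 0.324 (0.244 to 0.426), was under the level limit, so neither was called.

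**Figure D3:**
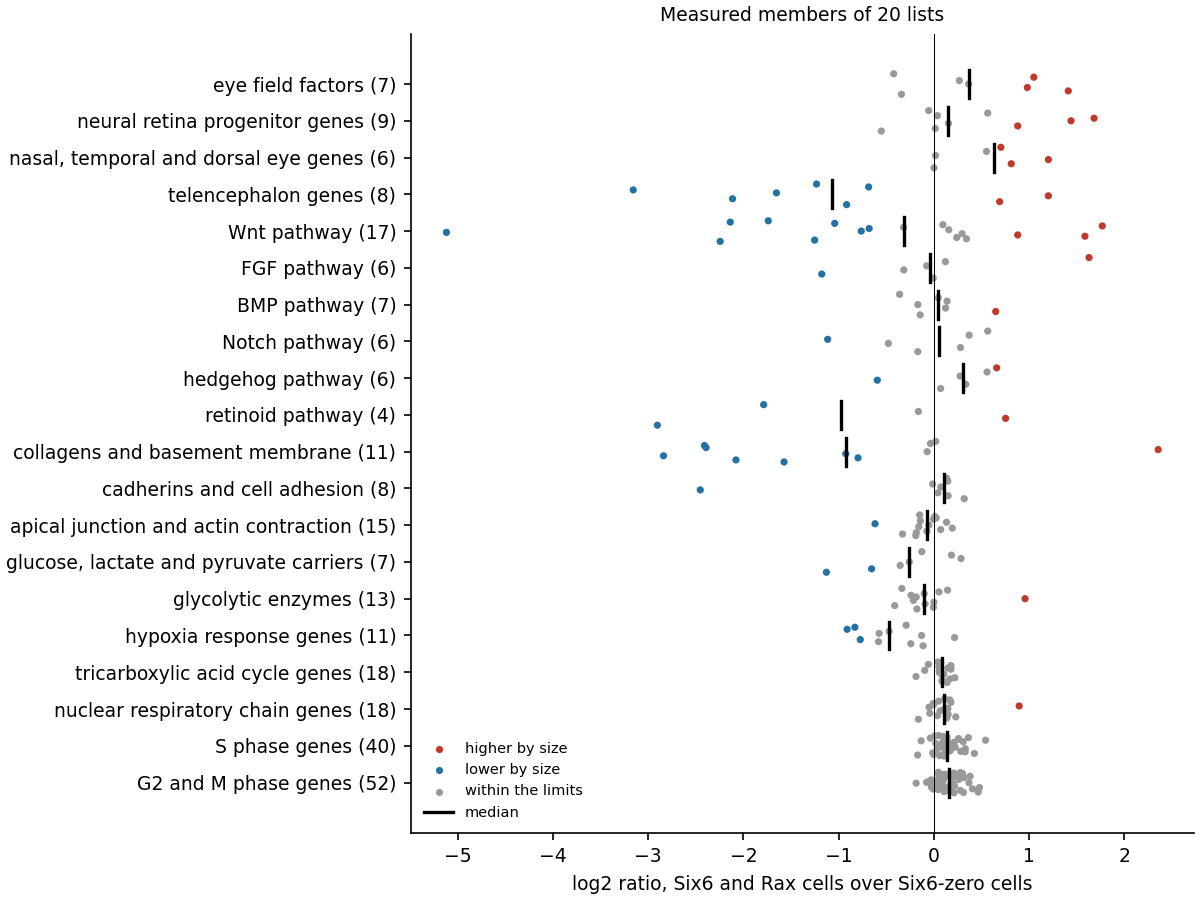
Log2 ratios of cells with Six6 and Rax over cells without Six6 for the measured members of 20 gene lists, a point per gene and a bar for each list's median. Telencephalon genes lay mostly below 0 (median -1.07), eye field factors above it (median 0.36), and the S phase and G2/M lists close to it (medians 0.14 and 0.16).

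Energy metabolism differed mainly in the carriers of glucose. Slc2a3, which encodes the transporter GLUT3, stood at 119 CPM (115 to 123) in the selected cells, 270.3 CPM in Rax-positive cells without Six6, 273 CPM in Fezf2-positive cells and 256 CPM in Wnt8b-positive cells. Slc2a1, the gene of GLUT1, stood at 250.2, 458, 449 and 434 CPM in the same order. Both were thus lower in the selected cells than in each of the 3 other forebrain sets, with ratios against all cells without Six6 of 0.457 (0.440 to 0.475) and 0.635 (0.618 to 0.653). With the marked cells left out, the ratios were 0.455 and 0.593. After thinning to 5000 UMIs, 36.1% of the selected cells and 63.6% of the Rax-positive cells without Six6 had an Slc2a3 UMI, against 13.1% of neural crest-like cells. The lactate carrier gene Slc16a3 was at 74.3 against 94.99 CPM, within the limit at 0.782.

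The enzymes of glycolysis stayed close to the other cells. Of 13 measured, 12 were within the limit, and the median log2 ratio was -0.10. Ldha, which makes lactate from pyruvate, stood at 1638 CPM against 1864 CPM, a ratio of 0.879 (0.869 to 0.889), and against 2177 CPM in the Rax-positive cells without Six6, a ratio of 0.753. Ldhb, the other lactate dehydrogenase gene, was the exception and ran the opposite way, at 266 against 137 CPM (1.94-fold, 1.88 to 2.01). It stood at 163 CPM in Rax-positive cells without Six6, 118 CPM in Fezf2-positive cells and 114 CPM in Wnt8b-positive cells. Eno1, Gapdh and Pkm had ratios of 1.10, 1.04 and 0.996, and Aldoa and Pgk1 the lowest of the list at 0.792 and 0.752. Pgk1 was lower by size against the Rax-positive cells, at 35.2 against 57.6 CPM (0.611).

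Genes that respond to low oxygen were lower in part. Of 11 measured, 3 were lower and 8 within, with a median log2 ratio of -0.47. The 3 were Bnip3, a mitochondrial death and mitophagy gene, at 44.2 against 78.5 CPM (0.563), Ddit4, an inhibitor of mTOR signalling, at 19.1 against 36.0 CPM (0.532), and P4ha1, a collagen prolyl hydroxylase, at 18.9 against 32.4 CPM (0.585). Against the Rax-positive cells without Six6 the same 3 and also Egln1 and Ero1l were lower, 5 of 10 measured. With the marked cells left out, P4ha1 was inside the limit in both comparisons, at 0.811 (0.725 to 0.906) and 0.692, which left 2 of 10 and 4 of 10 measured genes lower. The 18 genes of the tricarboxylic acid cycle were within the limit, and 17 of 18 nuclear genes of the respiratory chain were within it too, with Ndufa1 higher at 423 against 228 CPM (1.86-fold). Writers and erasers of histone acetylation were within the limit in 16 of 16 measured. Cdkn1a, a p53 target that stops the cell cycle, was lower at 21.9 against 47.5 CPM (0.461), while 40 of 40 measured S phase genes and 52 of 52 measured G2 and M phase genes were within, with medians of 0.14 and 0.16.

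How the other genes varied with the amount of Six6 was followed by thinning every cell without Wnt8b to 5000 UMIs and counting Six6. There were 3151 cells at 0 Six6 UMIs, 965 at 1, 528 at 2 and 428 at 3 or more. The 0 class holds some cells in which thinning removed the Six6 UMIs. Of 6794 genes, 80 were higher in each next class and ended at least 1.5-fold higher (1.18%), and 114 were lower in each next class and ended at most at the inverse (1.68%). Col9a1 stood at 18.9, 42.1, 49.6 and 53.3 CPM over the 4 classes, Six3 at 74.7, 124, 156 and 168 CPM, and Sfrp2 at 98.6, 159, 209 and 245 CPM. The largest step of Col9a1 was the first, and its 3 upper classes overlapped in their intervals. Gnai1, Rgs2, Fgf13 and Meis1 followed the same order. Pax6 and Lhx2 levelled off: Pax6 stood at 245, 372, 405 and 386 CPM and Lhx2 at 118, 177, 179.2 and 179.9 CPM. Necab2 was at 65.1, 100.1, 103 and 68.2 CPM, so its top class was back at the level of the 0 class.

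The carriers ran the other way over the classes. Slc2a3 stood at 231, 124, 90.9 and 59.8 CPM, and the intervals of neighbouring classes did not overlap. Slc2a1 was at 347, 232, 207 and 201 CPM, where the intervals of neighbouring classes overlapped from 1 UMI upward. Bnip3 was at 76.7, 40.2, 40.2 and 27.1 CPM and Ldha at 1763, 1518, 1461 and 1333 CPM. Of the forebrain genes, Fezf2 stood at 51.0, 25.3, 18.2 and 14.95 CPM, Lhx5 at 18.2, 8.91, 2.65 and 0.935 CPM and Emx2 at 19.2, 3.94, 1.52 and 0 CPM. The 0 of Emx2 allows up to 1.40 CPM, the level of 3 UMIs in that class. Igfbp2, a secreted binder of insulin-like growth factors, was at 566, 372, 274 and 231 CPM.

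**Figure D4:**
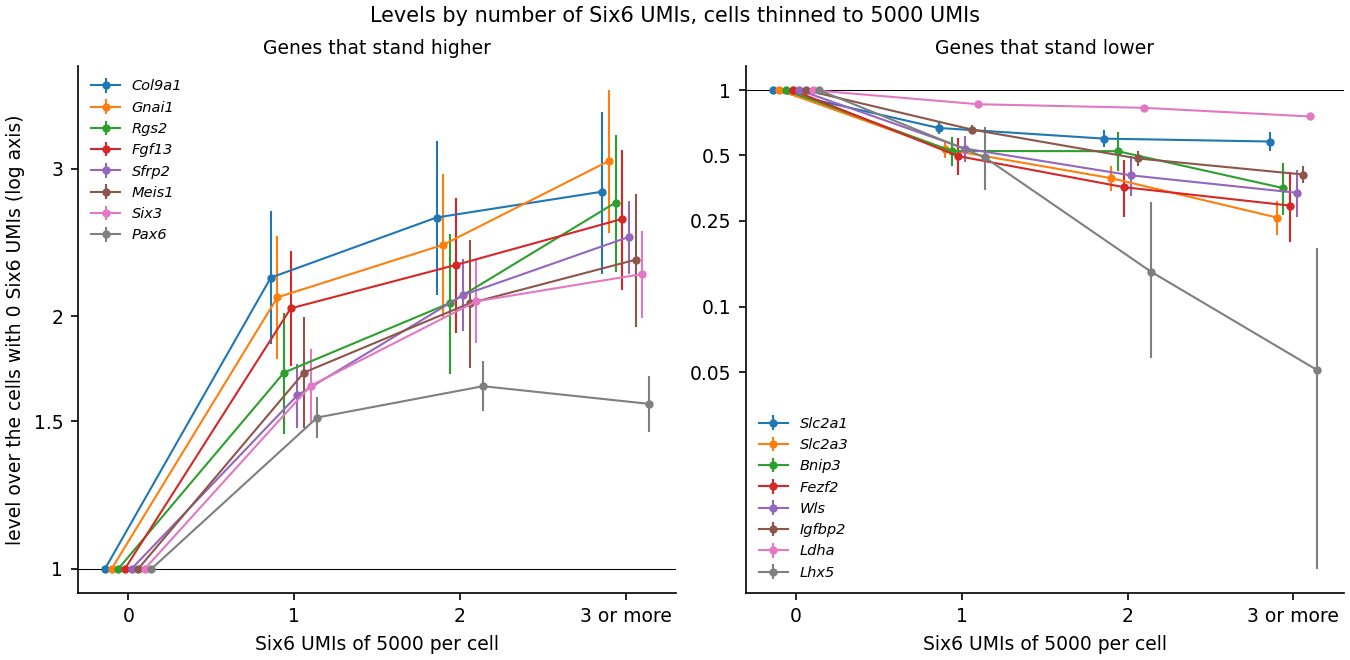
Level of 16 genes relative to the cells with 0 Six6 UMIs, in cells with 0, 1, 2 and 3 or more Six6 UMIs after thinning to 5000 UMIs, with lines joining the classes. Genes such as Col9a1 and Sfrp2 were higher in each next class, and Slc2a3, Fezf2 and Lhx5 lower in each, with Slc2a3 at 0.259 of its first level in the top class.

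Levels were also read in cells just inside and just outside the choice. The 192 members with exactly 1 UMI of Six6 and 1 of Rax had 34.8 CPM of Col9a1, 37.9 CPM of Fezf2 and 149 CPM of Slc2a3. The 1180 members with 2 or more of each had 47.6, 14.9 and 104 CPM of the same genes. Just outside, 575 cells with Six6 and without Rax or Wnt8b had 34.9, 29.8 and 125 CPM. The 240 of them with exactly 1 Six6 UMI had 23.9, 39.4 and 167 CPM. By contrast, 445 cells with 1 Rax UMI and no Six6 had 15.3, 69.4 and 274 CPM. The 56 cells with Six6, Rax and also Wnt8b, at a median of 17680 UMIs, had 40.7 CPM of Col9a1, 56.0 CPM of Fezf2 and 219 CPM of Slc2a3. At the upper limit of depth, 54 members with a median of 24944 UMIs had 29.7 CPM of Col9a1 and 163 CPM of Slc2a3, and 307 cells left out by the UMI or gene limit had 22.8 and 184 CPM. The values at the upper limit of depth lay between those of all selected cells and those of the cells without Six6. The part of depth in them was not tested.

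Within the selected cells, regional genes of the future eye marked small shares of cells. Foxd1, which stands on the temporal side of the vesicle, had a UMI in 250 cells (11.9%). Its thinned share of 4.92% lay inside the wide interval of the 137 neural crest-like cells (0.177 to 5.17%), which were too few to tell the shares apart. The thinned share was 4.11% in the Rax-positive cells without Six6, 3.496% in the cells without Six6 and 2.10% in the Wnt8b-positive cells.

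Cells with Foxd1 also differed from the other members in other genes. In the cells with Foxd1, which had a median of 15104 against 12803 UMIs, 16 genes were higher by size (0.25%) and 49 lower (0.766%) of 6398. Ptch1, the hedgehog receptor and target, stood at 27.8 against 14.2 CPM (1.95-fold) and Aldh1a3, which makes retinoic acid in the eye, at 24.2 against 13.9 CPM (1.75-fold). Tagln, an actin-binding protein gene, was lower there at 6.82 against 22.0 CPM (0.310), and Acta2, a smooth muscle actin gene, at 0.453.

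Genes of the optic stalk and ventral eye were below 10 CPM over the selected cells and the cells without Six6. Their values against those cells are therefore given without a call. Against the Rax-positive cells without Six6, 2 of the list's 10 genes were measured and both were higher, beside 0.863% of all genes measured. Their median log2 ratio was 1.56. In the comparisons with Fezf2-positive and Wnt8b-positive cells, 2 were again measured and higher, with medians of 2.98 and 3.73. Vax2, a factor of the ventral retina, stood at 6.23 against 1.02 CPM in the cells without Six6, a ratio of 6.14 (4.35 to 8.84). Aldh1a3 stood at 15.3 against 2.90 CPM (5.28, 4.29 to 6.52) and Pax2, a factor of the optic stalk, at 14.3 against 3.66 CPM (3.91, 3.23 to 4.75). After thinning, a UMI was found for Vax2 in 3.49% of the selected cells and 0 of 137 neural crest-like cells, for Aldh1a3 in 6.83% and 0, and for Pax2 in 6.92% and 1.46%. A count of 0 in 137 cells allows up to 2.19% of cells with a UMI, the share of 3 cells. The dorsal genes Bmp4 and Aldh1a1 were at 10.1 against 2.80 CPM and 4.89 against 1.61 CPM. Mitf, a regulator of pigment epithelium, stood at 15.9 against 5.72 CPM (2.79). Otx1 and Ttr, the 2 measured genes of the pigment epithelium list, were lower, at ratios of 0.293 and 0.0116. Ttr was under the level limit, at 0.246 against 0.755 CPM, when the marked cells were left out. The list then had 1 measured gene higher, Mitf, and 1 lower, Otx1.

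**Figure D5:**
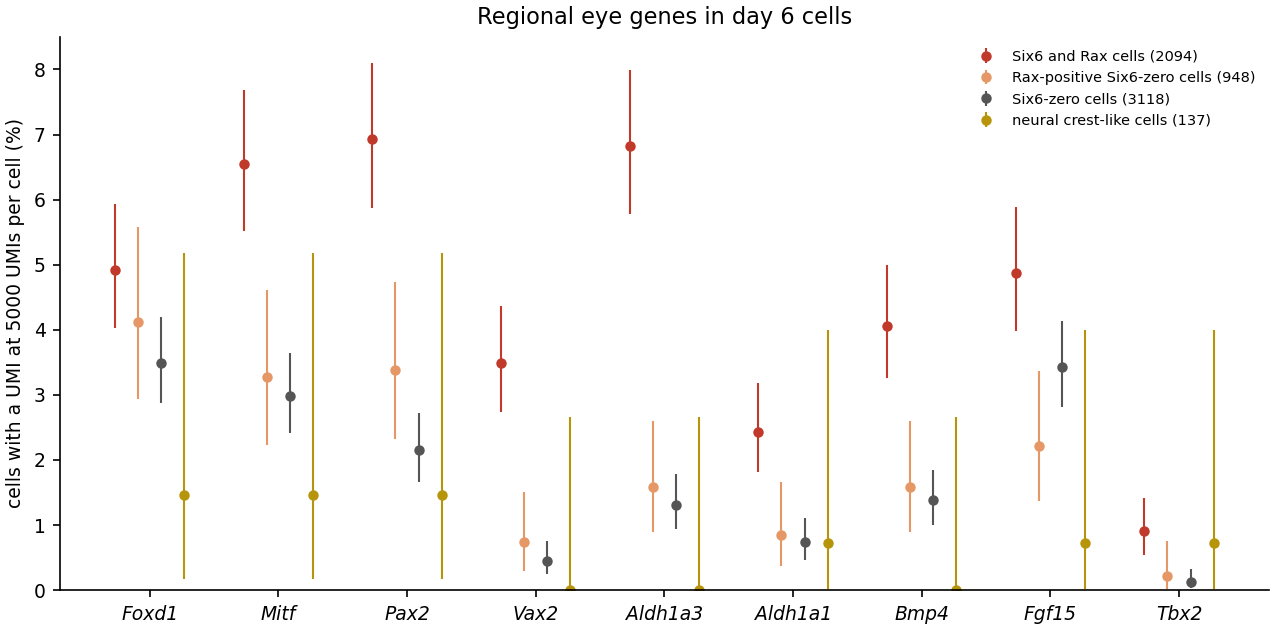
Share of cells with a UMI of 9 regional genes after thinning each cell to 5000 UMIs, in the 2094 cells with Six6 and Rax, 948 Rax-positive cells without Six6, 3118 cells without Six6 and 137 neural crest-like cells, with exact 95% intervals. Aldh1a3 was at 6.83% of the selected cells and 0% of the neural crest-like cells, and Vax2 at 3.49% and 0%.

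The members were also split by a UMI of Vax2, Mitf or Pax2. The sets differ in size and so in how small a difference they can show, and their counts of genes are not compared. The 140 cells with Vax2 (6.69%) had a median of 12576 UMIs against 13066 in the other members. Of 6399 genes, 84 were higher (1.31%) and 76 lower (1.19%). Igfbp5, a secreted binder of insulin-like growth factors, stood at 64.5 against 25.1 CPM (2.57-fold, 2.10 to 3.11), Sfrp2 was 1.72-fold and Col9a1 1.58-fold higher. Hesx1 was at 2.58 against 14.4 CPM, Slc2a3 at 71.2 against 122 CPM (0.582) and Ldha at 1066 against 1679 CPM (0.635, 0.607 to 0.664). Six6 in these cells was at a ratio of 1.39 to the other members. Cells with Mitf (384) and with Pax2 (341) had 2 and 11 genes higher (0.0313% and 0.172%) and 6 and 10 lower (0.0938% and 0.156%), Fezf2 being lower in both at 0.623 and 0.558.

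On day 4 the same conditions found 11 of 6228 cells (0.177%, 0.0882 to 0.316). These 11 had 331 CPM of Pax6 (248 to 433), 144 CPM of Lhx2 and 119 CPM of Six3 (71.4 to 185), near the day 6 levels. For Col9a1 and Mab21l2 they had 1 UMI each, or 6.24 CPM with a wide interval (0.158 to 34.8). The selected day 6 cells had 43.4 and 35.8 CPM of these 2 genes. The 11 day 4 cells also held 56.2 CPM of the pluripotency gene Pou5f1. The 241 day 4 cells with Rax and without Six6 or Wnt8b had 15.8 CPM of Pax6, 20.2 CPM of Lhx2 and 101 CPM of Six3 (90.7 to 113). Pax6 and Lhx2 were thus high in the day 4 cells with Six6 and low in those with Rax alone, while the intervals of Six3 overlapped between the 2. Day and library cannot be told apart.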

How the data were processed

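The data were droplet single-cell libraries of mouse eye organoids, 1 for day 4 and 1 for day 6. The authors deposited raw UMI counts per gene and barcode for 27998 genes of mm10, without normalization, and 56 symbols stood on more than 1 line. Cell Ranger 2.0.1 and Seurat 2.3.4 are listed in the submitters' processing notes, and later versions in the study's methods. The study kept 500 to 5000 genes, up to 26000 UMIs, up to 10% mitochondrial, at least 20% ribosomal protein and up to 0.5% haemoglobin UMIs, and the limits used here differ as stated in the report. The files hold 9114 day 4 and 7446 day 6 barcodes, fewer than the study gives for its cells after filtering. The depth of the selected cells is given there, and of the 5876 day 6 cells none held under 5000 UMIs, the size to which cells were thinned at random.

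For each set of cells, UMIs were summed by gene (Python 3.11.15, numpy 2.4.6, scipy 1.17.1, pandas 2.3.3). Levels carry exact Poisson, ratios exact conditional binomial and shares exact Clopper-Pearson 95% intervals. What a count of 0 allows is given instead as the level of 3 counts. Scripts were tested on simulated data. Scrublet (scanpy 1.11.5) marked 2 of 5876 cells (0.0340%), which was not relied on as a count of doublets, and doublets were left in. An alternative left out the 294 cells with the highest scores, of which 122 were selected cells. Free RNA was not removed.

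The selection of cells and the 34 gene lists (528 genes) were made with earlier results of these data known. Named are the 15 highest and 15 lowest ratios against cells without Six6, the 10 and 10 against Rax-positive cells and the 5 and 5 against Fezf2- and Wnt8b-positive cells, at 20 CPM or more and without mitochondrial, ribosomal protein, haemoglobin and unnamed genes, up to 4 members per list, and the marker and regional genes. Other genes, among them Hes1, Fzd5, Axin2, Pgk1, Eno1, Tagln, Ptch1 and Igfbp5, were named after their values were seen. A few genes are not reported here. Promoter windows came from RefSeq, which had one for 5260 of the 6785 measured genes.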

Additional observations from a re-analysis of the deposited data

Results flagged for a closer look

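Barcodes left out by the limits on cells were looked at for the same genes. Of the 1570 day 6 barcodes that any limit removed (21.1% of that library), 338 carried Six6 and Rax and no Wnt8b, a share of 21.5% (19.5 to 23.7) against 35.6% of the cells kept. Most of these, 316, were among the 792 barcodes over 26000 UMIs, where the share was 39.9% (36.5 to 43.4), at a median of 32991 UMIs. Of the 708 barcodes with 10 or more Dppa5a UMIs, 22 carried the combination (3.11%, 1.96 to 4.67). Of the 217 under 0.5% mitochondrial UMIs, 8 did (3.69%). A barcode with more UMIs has more chances to hold 1 UMI of each gene, and the part of depth in these shares was not tested.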

How the results depend on the processing

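Alternatives were tried 1 at a time. Against the cells without Six6, the 146 genes called lower became 242 with totals that left out mitochondrial and ribosomal protein genes, where 7916 instead of 6785 genes passed 10 CPM, and 92 without the cells that carried 2 or more markers of other types. With no level limit 353 were higher and 1460 lower. The median log2 ratio of eye field factors, 0.36 as reported, was 0.47 with thinned cells, 0.56 with sets also chosen on thinned cells, 0.45 in cells of 10000 to 16000 UMIs, 0.46 against cells with 0 Six6 and 0 Rax, and 0.24 without the marked cells. The median of glycolytic enzymes, -0.10, was -0.21 with sets chosen on thinned cells and -0.0033 against cells with 0 Six6 and 0 Rax. The cause of these shifts was not tested.

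In the comparison with Rax-positive cells, the other totals gave 117 lower, and no limit gave 283 higher and 633 lower. With Fezf2-positive cells they gave 158 lower, no limit 432 higher and 715 lower, and sets chosen on thinned cells 175 lower. With Wnt8b-positive cells the other totals gave 198 lower, no limit 427 higher and 832 lower, and sets chosen on thinned cells 235 higher and 196 lower. Of 800 values of the genes named by the rank of their ratio under the alternatives, 2 changed sign, Lama1 (log2 ratio 0.021) and Col4a1 (0.053), both without the marked cells, and 149 left the counting interval of the reported value. Calls were lost for 10 of these genes: Srgn, Lama1, Col4a1, Col4a2, Lamc1, Fabp3 and S100a1 without the marked cells, and Mab21l2, Lgr4 and Shisa2 against Rax-positive cells with sets chosen on thinned cells (log2 ratios 0.40, 0.41 and 0.53). Of the other genes named from the lists, Ttr, Epcam, Rbp4, Myh9, P4ha1 and Lmo3 also lost their calls without the marked cells and Lamb1 turned from lower to higher, with the values given beside each, while Hesx1 became lower at a ratio of 0.660 and Hes1 and Mitf higher at 1.52 and 2.66. The removal of marked cells and every alternative for the last 3 comparisons were chosen after the data were seen.

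No paired analysis was possible because each day had 1 library. Leaving out a replicate was not possible either. Depth limits genes under 10 CPM, and 3' capture leaves cells whose 0 UMIs of Six6 or Rax do not show that the gene was silent. Spread between experiments, organoids or libraries is unknown.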
